A study of Mus musculus with 10 samples.

Results

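Cycling mesenchymal cells were studied in the enthesis of the mouse supraspinatus, the attachment of a shoulder tendon to bone, at postnatal day 11 (P11). They were chosen from the droplet library of whole entheses by their transcripts. A cell was eligible when it had at least 500 detected genes, at most 10% of its counts in mitochondrial (mt-) genes, at least 5 counted molecules (UMIs) of the type I collagen gene Col1a2, and none of the leukocyte gene Ptprc or the endothelial gene Cdh5. Among eligible cells, those with a UMI of at least 2 of the 6 genes Mki67, Top2a, Cdk1, Ccnb1, Ccnb2 and Ccna2 were called cycling, and those with none of the 6 formed the compared cells. This gave 95 cycling cells and 1934 compared cells among 2229 eligible cells, and 200 cells with exactly 1 of the 6 genes belonged to neither. The library held 3263 barcodes, of which 2952 passed the limits on genes and mitochondrial counts, and the whole series held 15043 barcodes and wells.

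The P11 library came from wild-type C57BL/6 mice, with no transgene or treatment stated, and the same was done at P18 and P56. Entheses of each age were pooled, digested with liberase, freed of red cells by lysis and sorted to leave out cells stained for Cd45, a surface protein of leukocytes, or by DAPI, which enters dead cells. The other 7 libraries were plates of 96 wells, 1 each at P11 and P18 and at the further ages P7, P14, P21, P28 and P42, from Gli1CreERT;Ai14 mice given tamoxifen at P5 and P7. In these mice a Cre driven from Gli1, a target and transcription factor of Hedgehog signalling, marks cells and their descendants with a red protein, and the wording of the plate sort does not settle whether red cells were kept. Each age was 1 library in each assay, which allows no test of age, and cells of 1 library were not treated as replicates. The P11, P18 and P56 droplet libraries held 44104990, 53725468 and 40082499 counts, with medians of 14250, 10149 and 6768 UMIs per eligible cell, and shared 4, 6 or 9 barcodes per pair of libraries.

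A dividing cell passes from a growth phase (G1) through DNA synthesis (S) and a second gap (G2) to mitosis. Cyclins D and E with Cdk4, Cdk6 and Cdk2 release E2F factors from RB proteins, and E2F then drives genes that license and copy DNA. Later in the cycle cyclins A and B with Cdk1 are made together with the genes of chromosome condensation, the spindle and cell separation, under Foxm1, B-Myb and the MuvB proteins. Tendon cells are known to divide in the first weeks after birth and to leave the cycle as the tissue matures.

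The 6 genes that chose the cells are given as a description only. Mki67 (ENSMUSG00000031004), a coat protein of mitotic chromosomes, had 578 UMIs in 76 of the 95 cells, with 0, 3 and 46 UMIs in the lowest, median and highest cell. Top2a (ENSMUSG00000020914), the topoisomerase that untangles replicated DNA, had 988 UMIs in 75 cells, with 0, 10 and 46. Cdk1 (ENSMUSG00000019942), the mitotic kinase, had 755 UMIs in 76 cells, with 0, 6 and 36. Its partner cyclins Ccnb1, Ccnb2 and Ccna2 had 324, 404 and 362 UMIs in 54, 68 and 66 cells. All 6 genes were found in 42 of the cycling cells, 3 to 5 of them in 26 cells and exactly 2 in 27 cells, so most members lay well inside the threshold. The cells just inside it, with 2 genes, had a median of 0.0989% of their UMIs in 47 other genes of DNA replication and 0.110% in 65 other genes of mitosis. The 200 cells just outside, with 1 gene, had medians of 0.0479% and 0.0466%, and the compared cells 0.0386% and 0.0357%.

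More UMIs were counted in the cycling cells than in the compared cells. The rule partly sets this difference, since its genes are found more readily in deeper cells. UMIs of the cycling cells ran from 1481 through a median of 19024 to 57197, against a median of 13874 in compared cells. The cycling cells had a median of 4426 against 3175 detected genes. When every cell was thinned to 5000 UMIs, 70 of 2121 cells met the rule, or 3.30% (exact 95% binomial interval 2.58 to 4.15), against 4.26% (3.46 to 5.19) of eligible cells unthinned. The share of mitochondrial counts was alike, with medians of 5.41% and 5.39%.

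The label was checked against markers of the cells a Col1a2 threshold can let in. Col1a2 itself ran from 6 through 145 to 3538 UMIs in cycling cells, against a median of 202.5 in compared cells. Of 436 cells with a Ptprc UMI, a class that should lack Col1a2, 52 (11.9%, 9.04 to 15.3) also had at least 5 Col1a2 UMIs, with median depths of 11724 UMIs in that class and 14250 in eligible cells, so the threshold alone does not set mesenchymal cells apart. Some of the 95 cells were not plainly mesenchymal. Of them 7 carried at least 2 UMIs of the myogenic genes Myod1, Pax7 and Myf5, 10 carried at least 10 UMIs of the mural gene Rgs5, and 2 carried at least 5 UMIs of the B-cell gene Cd79a; 1 cell carried the first and second marks together. Both B-lineage cells also held at least 20 UMIs of Tnmd, a tendon gene. These limits were chosen after the values were seen, and the shares, the classes of cells and the lists whose counts moved by over 1.5 times are also given without the 18 cycling and 33 compared cells so marked. Without them the share was 77 of 2171 cells, or 3.55% (2.81 to 4.41).

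Summed over each list, mural markers stood at 1000 CPM (a UMI count scaled to a fixed total in each group) in cycling cells and 243 CPM in compared cells, muscle markers at 131 and 66.9 CPM, immune markers at 75.3 and 30.5 CPM, and endothelial markers at 15.8 and 3.61 CPM. Of the endothelial list, 3 of 7 markers, Kdr, Emcn and Tie1, were at 0 in the cycling cells. Erythroid markers stood at 13.7 and 11.5 CPM and Schwann cell markers at 30.03 and 32.01 CPM, which differ less. Among the muscle genes the early regulators Pax7, Myod1 and Myf5 had 20, 34 and 25 UMIs in cycling cells and 6, 0 and 3 in compared cells, whereas Myog, a gene of muscle differentiation, had 0 and 2. The part of these cells in the results was not tested other than by leaving out the marked ones.

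Counts were summed over the 95 cycling and the 1934 compared cells, and the ratio of CPM was taken for each gene with at least 200 UMIs in both groups together. Of 8781 genes, 688 were at least 2-fold higher in cycling cells (7.84%) and 269 at least 2-fold lower (3.06%). The median log2 ratio over all genes was 0.19. Intervals given with ratios are exact 95% Poisson intervals, which cover counting error only. Because a list was also compared after weighting the compared cells to the same clusters as the cycling cells, the background of that comparison is given too, with 446 genes higher (5.08%), 254 lower (2.89%) and a median log2 ratio of 0.01. Scaling by trimmed mean (TMM) shifted all log2 ratios by 0.29 and turned the split of calls, to 394 higher and 544 lower genes. The rule for choosing the cells used transcripts that vary with these genes, so every count below is a description. The minimum of 200 UMIs counts both groups together. A gene near 0 in compared cells thus passes it only through the cycling cells, where it is high. This partly sets the counts and medians of the lists.

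Genes that prepare and copy DNA were higher in the cycling cells throughout. Of 19 measured genes of origin licensing and firing, 8 passed the minimum and 8 of 8 were at least 2-fold higher, with a median log2 ratio of 2.97. The remaining 11 had too few UMIs, which tends to leave out genes found in few cells, and each had a higher CPM in cycling cells. Gmnn, which blocks relicensing of fired origins, had 159 UMIs in 55 cycling cells against 51 UMIs in all compared cells, a log2 ratio of 5.49 (5.02 to 5.97). Gins2, a part of the replicative helicase, stood at 72.3 CPM against 6.79 CPM (log2 3.41), and Mcm6, a subunit of its MCM ring, at 86.5 CPM against 11.6 CPM (log2 2.89). Per cell, Mcm6 ran from 0 through 45.8 to 338 CPM in cycling cells, and 44.2% of them had none, against 86.5% of compared cells. The ranges overlap, since single compared cells reached 1264 CPM.

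Of 28 genes of DNA replication itself, 19 passed and 19 of 19 were at least 2-fold higher, with a median log2 ratio of 2.60. The salvage enzyme thymidine kinase, Tk1, had 274 UMIs in cycling cells and 19 in compared cells (log2 7.70, 7.03 to 8.45). Rrm2, the regulated subunit of ribonucleotide reductase, had 361 and 124 UMIs (log2 5.39), thymidylate synthase Tyms had 314 and 223 (log2 4.34), and DNA ligase Lig1 had 209 and 158 (log2 4.25). The sliding clamp Pcna ran from 0 through 93.3 to 711 CPM per cycling cell, while the compared cells had a median of 0 and a maximum of 412 CPM. None of the 9 genes of S-phase DNA repair reached 200 UMIs. Their summed level was 204 CPM against 8.06 CPM, and Rad51ap1, with 123 UMIs against 11, held the most UMIs of the list in cycling cells.

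Genes that pack new DNA were higher as well. Of the replication-dependent histones 4 of 11 passed, and 2 of the 4 were at least 2-fold higher. Hist1h2ap and Hist1h2ae had 863 and 451 UMIs in cycling cells against 32 and 36 in compared cells (log2 8.60 and 7.49), whereas Hist1h1c and Hist1h2bc stood at log2 0.85 and 0.34. Histone genes of this cluster are near-identical copies, so reads may be split between them. Among genes of the chromatin of dividing cells, 15 of 15 were at least 2-fold higher, with a median of 2.71. H2afz, a histone variant, had 4077 UMIs and was found in all 95 cycling cells, running from 66.7 through 2106 to 5567 CPM, against 0, 212 and 4115 CPM in compared cells (log2 3.05). The chromatin protein Hmgb2 stood at log2 4.32 and the nuclear lamin Lmnb1 at 5.45.

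Lists of mitotic genes had medians between 2.17 and 7.52, and the passenger, spindle and kinetochore lists had higher medians than any list of replication or chromatin. The minimum partly sets that order, since genes with few UMIs in compared cells passed through the cycling cells. Summed over all members, passed or not, the log2 ratios were 6.72 for passenger, 3.39 for spindle and 4.92 for kinetochore genes. They were 3.11 for origin licensing, 2.75 for DNA replication, 4.66 for S-phase repair, 2.54 for chromatin and 3.27 for histones. Of 7 genes of the chromosomal passenger complex and cytokinesis that passed, 7 were at least 2-fold higher, with a median log2 ratio of 7.52. The figures were 14 of 14 with a median of 7.18 for the spindle and its motors, 7 of 8 with 6.91 for the centromere and kinetochore, 2 of 2 with 3.63 for the spindle checkpoint, 10 of 10 with 4.43 for mitotic entry and exit, and 7 of 9 with 2.17 for condensin and cohesin. Birc5, the survivin subunit of the passenger complex, had 572 UMIs in 69 cycling cells against 19 in the compared cells (log2 8.76, 8.10 to 9.50), and its partner Cdca8 had 344 against 11 (log2 8.81). Hmmr, a spindle protein, had 335 UMIs against 2, a log2 ratio of 11.24 with a counting interval of 9.37 to 14.29. Ube2c, the ubiquitin enzyme that helps to end mitosis, had 1227 UMIs against 14 (log2 10.30), and ran from 0 through 136 to 3206 CPM per cycling cell with 37.9% of them at 0.

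Stmn1, which destabilises microtubules, had 2169 UMIs in 85 cycling cells. Per cell it ran from 0 through 1190 to 3453 CPM, against a median of 0 and a maximum of 341 CPM in compared cells, of which 90.0% had none. The kinetochore proteins Spc25 and Cenpf stood at log2 8.90 and 7.79, the spindle assembly factor Tpx2 at 8.70, the mitotic kinase Pbk at 10.44, the condensin subunit Smc2 at 5.42 and the checkpoint protein Mad2l1 at 5.29. Members under 2-fold among the mitotic lists were securin Pttg1 (log2 0.38), the cohesin subunit Stag1 (1.00 after rounding) and the kinetochore protein Zwint (0.59); Pttg1 and Zwint had 720 and 517 UMIs in compared cells. Without the marked cells the median of the passenger and cytokinesis list was 7.65 and that of the DNA replication list 2.70, with 7 of 7 and 19 of 19 genes still at least 2-fold higher.

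**Figure D1:**
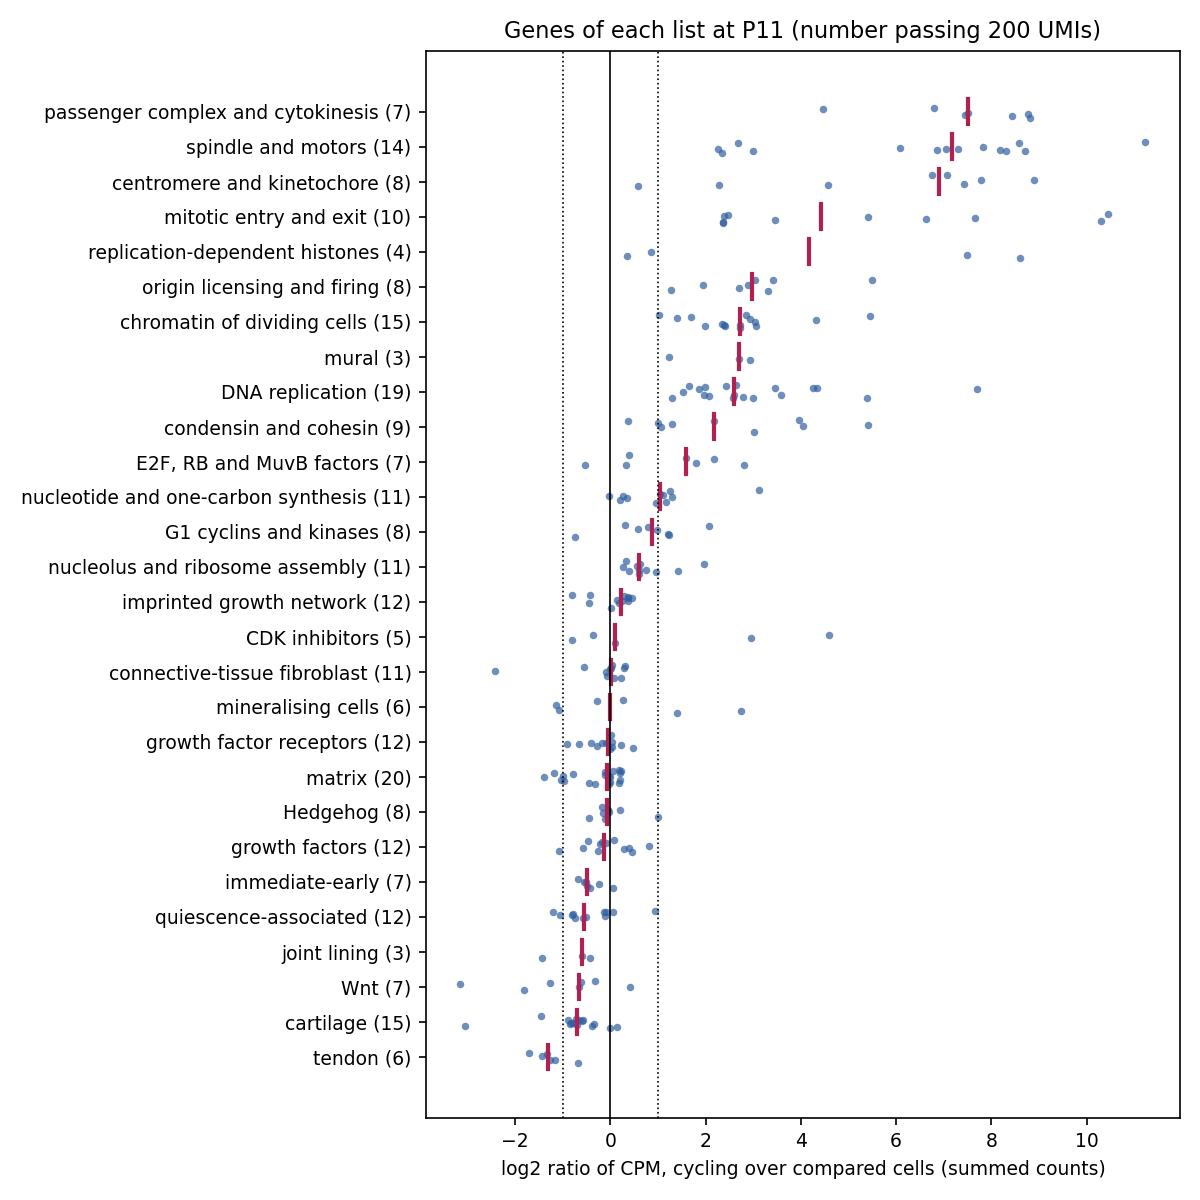
Each point is 1 gene with at least 200 UMIs, placed by its log2 ratio of CPM in the 95 cycling over the 1934 compared cells of the P11 library, with 1 row per list of at least 3 such genes, the number of genes in parentheses and the list's median as a red bar. Dotted lines mark 2-fold. The passenger, spindle and kinetochore lists lie furthest to the right (medians 7.52, 7.18 and 6.91), condensin and cohesin lie at 2.17, beside the replication lists at 2.60 and 2.97, and the tendon list is lowest at -1.30.

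Promoters of these genes were read because the genes moved together. Windows of 250 bases before to 50 bases after the start were taken from RefSeq (GRCm38.p6), and 54 of 65 mitotic genes and 38 of 47 replication genes were matched by symbol, with 60 and 43 windows. Searches on both strands were made for the cell cycle homology region (CHR, TTTGAA or TTTAAA), known as a contact of the MuvB protein Lin54, for the CCAAT box, bound by NF-Y, and for E2F elements (the form TTGGCGC, the form TTCGCGC, the form TTCCCGC and the form TTGCCGC). A CHR was in 75% of mitotic windows, 25.6% of replication windows, 18.8% of 8957 windows of the tested genes and 27.6% of all 32851 windows. A CCAAT box was in 75%, 55.8%, 37.1% and 37.4%. Both motifs in 1 window occurred in 60% of mitotic and 14.0% of replication windows, against 7.16% of windows of tested genes and 10.7% of all windows. An E2F element showed the other order, in 15% of mitotic and 60.5% of replication windows, against 16.6% and 9.57%. The median GC content was 59.3% in mitotic, 62.3% in replication, 61.7% in tested and 52.7% in all windows. These matches are descriptions of letters, not of binding sites.

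Sequences are shown for the 3 mitotic genes with the highest ratio among those that met set conditions. A gene had to have a single window, with both a CHR and a CCAAT box in the 200 bases before the start. Genes of a chromosome held out of this choice were not considered. The 200 bases are printed 5′ to 3′ on the gene's strand with every matched motif in capitals. Ube2c lies at chr2:164769729-164769928 on the plus strand, Ckap2l, a spindle protein gene, at chr2:129297213-129297412 on the minus strand, and Kif11, the gene of a spindle motor, at chr19:37376182-37376381 on the plus strand.
Ube2c: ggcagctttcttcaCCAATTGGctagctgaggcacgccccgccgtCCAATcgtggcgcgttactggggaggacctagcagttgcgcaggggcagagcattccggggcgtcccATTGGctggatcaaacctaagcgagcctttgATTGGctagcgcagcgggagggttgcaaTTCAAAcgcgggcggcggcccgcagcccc
Ckap2l: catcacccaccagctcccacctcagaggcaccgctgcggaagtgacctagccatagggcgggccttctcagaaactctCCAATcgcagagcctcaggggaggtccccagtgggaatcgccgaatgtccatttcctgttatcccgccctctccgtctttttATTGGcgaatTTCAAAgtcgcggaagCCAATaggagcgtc
Kif11: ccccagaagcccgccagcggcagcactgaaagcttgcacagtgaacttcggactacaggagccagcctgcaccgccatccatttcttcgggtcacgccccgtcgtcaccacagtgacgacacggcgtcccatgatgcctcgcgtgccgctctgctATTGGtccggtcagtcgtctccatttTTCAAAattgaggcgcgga
In each of them the CHR reads TTCAAA, the reverse complement of TTTGAA, and begins 29, 30 and 19 bases before the start in Ube2c, Ckap2l and Kif11. The nearest CCAAT box upstream of it, here read as ATTGG, begins 57, 40 and 45 bases before the start.

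The 3 replication genes chosen in the same way for an E2F element are shown for contrast. Rrm1, the large subunit of ribonucleotide reductase, lies at chr7:102441495-102441694 on the plus strand, Mcm6 at chr1:128359706-128359905 on the minus strand, and Rfc3, a clamp loader subunit, at chr5:151651209-151651408 on the minus strand.
Rrm1: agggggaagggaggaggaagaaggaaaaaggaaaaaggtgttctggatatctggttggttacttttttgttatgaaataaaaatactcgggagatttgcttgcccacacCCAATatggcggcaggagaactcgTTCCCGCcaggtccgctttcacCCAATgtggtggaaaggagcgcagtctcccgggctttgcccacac
Mcm6: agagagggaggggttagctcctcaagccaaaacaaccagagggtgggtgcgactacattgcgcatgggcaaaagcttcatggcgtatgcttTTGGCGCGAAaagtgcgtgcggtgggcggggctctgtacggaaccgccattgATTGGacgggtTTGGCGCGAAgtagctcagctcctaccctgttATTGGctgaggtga
Rfc3: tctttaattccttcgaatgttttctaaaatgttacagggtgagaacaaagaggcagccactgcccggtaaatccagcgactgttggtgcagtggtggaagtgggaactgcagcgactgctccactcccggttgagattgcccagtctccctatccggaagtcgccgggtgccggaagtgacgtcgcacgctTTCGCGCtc
Mcm6 holds 2 stretches TTGGCGCGAA in which an element on each strand overlaps, beginning 109 and 46 bases before the start. Rrm1 holds TTCCCGC between CCAAT boxes, and Rfc3 holds TTCGCGC beginning 9 bases before the start and no CCAAT box in the printed stretch. No CHR lies in these 3 printed stretches.

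Cycling cells differed among themselves in where they stood between replication and mitosis. Limits were set at the 99th percentile of the compared cells, 0.152% of a cell's UMIs in the 47 replication genes and 0.107% in the 65 mitotic genes. Above both limits lay 58 of the 95 cells, 24 lay above the mitotic limit only, 2 above the replication limit only and 11 above neither. All 11 were among the 27 cells with exactly 2 rule genes. The rule genes are mostly made later in the cycle, so this split is partly set by the choice of cells. Of the 200 cells with exactly 1 rule gene, 11 lay above the replication limit only, 7 above both and 10 above the mitotic limit only. The replication share of cycling cells ran from 0.0249% through 0.241% to 0.743% and the mitotic share from 0.0221% through 0.725% to 2.60%. These ranges overlap those of the compared cells, of which 1897 of 1934 lay below both limits. The classes are ranges and not cell types, and 20 cycling cells lay within 1.3 times of a limit.

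**Figure D2:**
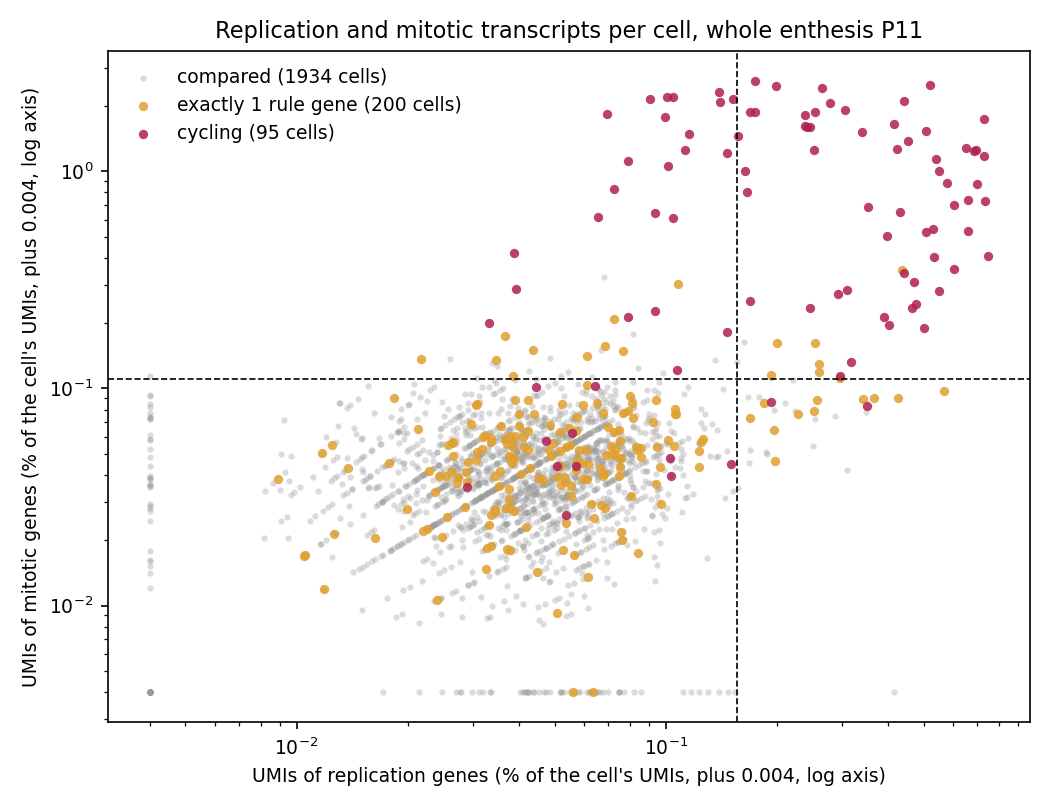
Each point is 1 cell of the P11 library, placed by the percentage of its UMIs in 47 replication genes (x) and 65 mitotic genes (y), both on log axes after adding 0.004, with dashed lines at the 99th percentiles of the compared cells. Of the cycling cells (red), 58 lie above both lines and 24 above the mitotic line only, and the cells with exactly 1 rule gene (orange) mostly lie among the compared cells (grey).

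The genes that make up the limits follow them by construction, so values of single genes are given only to show the contrast. Hist1h2ap stood at 659 CPM in the 58 cells above both limits and at 33.5 CPM in the 24 cells above the mitotic limit only. Rrm2 stood at 264 and 37.9 CPM and Pcna at 205 and 35.7 CPM. The cyclin E gene Ccne2, which is in neither set of limits, had 103 UMIs in the first group (80.1 CPM) and none in the second. In the other direction, Ube2c stood at 491 and 1328 CPM, Cenpa, the centromeric histone, at 252 and 708 CPM, and Cdc20, an activator of the anaphase-promoting complex, at 172 and 538 CPM. H2afz was level across both groups, at 2300 and 2288 CPM, and stood at 251 CPM in compared cells. The 11 cells above neither limit had no UMI of Hist1h2ap, Ube2c, Cdc20, Tk1 or Hmmr, and Pcna in them, at 15.5 CPM, was below the 21.4 CPM of compared cells.

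Regulators that act before replication differed less. Of the cyclins and kinases of G1, 3 of 8 were at least 2-fold higher and none lower, with a median log2 ratio of 0.88. With TMM scaling 1 was higher and 1 lower. The 3 were Cdk2 (log2 2.08), Cdk4 (1.24, 1.06 to 1.41) and the phosphatase Cdc25a (1.21). Cyclin D1, Ccnd1, stood at log2 0.79, and cyclin D2, Ccnd2, was lower, with 0, 103 and 1059 CPM in the lowest, median and highest cycling cell against 0, 199.4 and 2193 CPM in compared cells (log2 -0.74). With compared cells of the same clusters the list had 2 of 8 genes higher and a median of 0.27, Ccnd1 stood at 0.22 and Ccnd2 at -0.63. Of the E2F, RB and MuvB factors, 4 of 7 were at least 2-fold higher, with a median of 1.58, led by the CHR-binding protein Lin54 (2.79), E2f1 (2.18) and the E2F partner Tfdp1 (1.80). Foxm1 and the B-Myb gene Mybl2 had 77 and 23 UMIs in cycling cells and 12 and 8 in compared cells, under the minimum.

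The inhibitors of cyclin-dependent kinases that passed the minimum split by family. Of 5 that passed, the INK4 members Cdkn2c and Cdkn2d were at least 2-fold higher and none was 2-fold lower. The INK4 members Cdkn2a and Cdkn2b were under the minimum, and only 1 of these 2 had a higher CPM in cycling cells. Cdkn2c had 523 UMIs in 67 cycling cells against 314 UMIs in 1934 compared cells, running from 0 through 131 to 948 CPM against a median of 0 and a maximum of 758 CPM (log2 4.58, 4.38 to 4.79). It stood at 259 CPM in cells above both limits, 415 CPM in cells above the mitotic limit only and 10.3 CPM in the 11 cells above neither. Cdkn2d had 364 against 679 UMIs (log2 2.95). Of the CIP/KIP family, Cdkn1b stood at log2 0.10, Cdkn1a at -0.37 and Cdkn1c, an imprinted inhibitor, at -0.80 (-0.93 to -0.67). Cdkn1c had a median of 90.1 CPM per cycling cell against 250 CPM, and within the cycling cells it stood at 191 CPM above both limits, 304 CPM above the mitotic limit only and 691 CPM above neither, the last resting on 134 UMIs in 9 cells. With TMM scaling Cdkn1c passed 2-fold lower.

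Few genes linked with rest passed 2-fold. Of 12 quiescence-associated genes, 2 were at least 2-fold lower and none higher, with a median log2 ratio of -0.55. These were the growth arrest gene Gas6 (-1.21, with 223 and 7446 UMIs) and the PI3-kinase inhibitor Pik3ip1 (-1.06, with 20 and 600 UMIs), while Ccng2 stood at 0.93. With TMM scaling 5 of 12 were 2-fold lower, and without the marked cells 1 was. Summed over the list, the log2 ratio was 0.44 in mural-like cells of the classes described below. The 7 immediate-early genes, which respond to stimulation and to tissue digestion, had a median of -0.50 with none past 2-fold, and Fos, Fosb and Junb stood at -0.51, -0.67 and -0.55.

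Of the genes of growth, few outside nucleotide synthesis passed 2-fold. Of 11 genes of the nucleolus and ribosome assembly, 2 were at least 2-fold higher, with a median of 0.60. Both, the nuclear transport GTPase Ran (1.96) and its binding protein Ranbp1 (1.43), also serve the mitotic spindle. Nucleolin Ncl stood at 0.61 and Npm1 at 0.39. Of 11 genes of nucleotide and one-carbon synthesis, 6 were at least 2-fold higher, with a median of 1.05, led by the serine synthesis enzyme Psat1 (3.13, with 79 and 130 UMIs) and the purine enzyme Gart (1.29). With compared cells of the same clusters 4 of 11 were higher and the median was 0.76, and 4 were higher without the marked cells and 2 with TMM scaling. Of the imprinted genes of a network active in growing young tissue 0 of 12 passed 2-fold in either direction (median 0.21, beside 0.19 over all genes), with Igf2 at 0.45 and H19 at 0.18. With the same clusters the median was -0.10.

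Ligands and receptors differed little. Of 12 growth factor genes none was 2-fold higher and 1 was lower, with a median of -0.13. The one was Ctgf (also called Ccn2), a matricellular factor with 769 and 23272 UMIs (log2 -1.07), which stood at -0.32 with compared cells of the same clusters. Of 12 growth factor receptors 0 passed 2-fold (median -0.05), the extremes being Pdgfrb at 0.47 and Fgfr2 at -0.91. Of 8 Hedgehog genes 0 passed either (median -0.08), with the Hedgehog repressor Gli3 at 0.99 and Gli1 itself under the minimum at 13 and 146 UMIs, and 1 of the 8 passed 2-fold higher without the marked cells. Of 7 Wnt genes 3 were 2-fold lower. These were the inhibitors Sfrp2 (5 and 639 UMIs, log2 -3.15, interval -4.78 to -1.92), Dkk2 (-1.82) and Wif1 (-1.27), of which Wif1 stood at -0.31 with the same clusters.

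Tendon genes were lower in the cycling cells as a whole. Of the 6, 5 were at least 2-fold lower, with a median log2 ratio of -1.30. Tnmd, a membrane protein of mature tendon cells, ran from 0 through 66.7 to 7475 CPM per cycling cell against 0, 592 and 17103 CPM in compared cells (log2 -1.17, -1.24 to -1.10), with 41.1% and 35.2% of cells at 0. Fmod, a proteoglycan of collagen fibrils, stood at -1.44, Kera at -1.33, and the tendon transcription factors Scx and Mkx at -1.28 and -1.71. Thbs4, a matrix protein of tendon and its muscle junction, stood at -0.67. Against compared cells of the same clusters none of the 6 passed 2-fold, and the median was -0.37 in place of -1.30. Without the marked cells 5 of 6 were lower and the median was -1.17.

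Fewer of the matrix genes passed. Of 20, 4 were at least 2-fold lower and none higher, with a median of -0.08. Col1a1, the main collagen of tendon and bone, ran from 57.6 through 7446 to 234951 CPM per cycling cell, against 0, 18537 and 301195 CPM (log2 -1.39, -1.41 to -1.38), and the cells overlap over nearly the whole range. The collagen crosslinking enzyme Lox stood at -1.04 and fibrillin Fbn2 at -1.17, the collagen-binding protein Sparc was at -1.0045, and Col3a1, a collagen of loose connective tissue, stood at 0.23. Cells of the same clusters put Col1a1 at -0.52, Lox at -0.34 and Sparc at -0.34. Elastin, Eln, and the inhibitor Timp3 were the 2 genes past 2-fold there, at -2.70 and -1.03. Without the marked cells the list had 2 genes lower and a median of 0.04.

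In the lists of other lineages, the highest cycling cell was found for each list apart. That of the mineralising genes held 58.0% of their UMIs, that of the cartilage genes 31.3% and that of the connective-tissue fibroblast genes 5.33%. Of 15 cartilage genes 2 were at least 2-fold lower (median -0.71), or 1 higher and 1 lower with the same clusters (median 0.21). Epyc had no UMI in cycling cells against 357 in compared cells, which with a floor of 3 counts over the group makes it at least 8.27-fold lower, and Col11a2 stood at -1.46. With TMM scaling 7 of 15 were lower. Among 6 genes of mineralising cells, Spp1 and Mmp13 were higher (1.40 and 2.74) and Alpl and Ibsp lower (-1.15 and -1.08), but 66.9% of the Spp1 UMIs came from 1 cycling cell and Mmp13 was found in only 2. Without the marked cells 1 of these 6 genes was lower, and with the same clusters none was. The connective-tissue fibroblast genes had a median of 0.00, or -0.59 with the same clusters, and 1 of 11 was 2-fold lower. This was Pi16, which marks a fibroblast type widespread in connective tissue, with 11 UMIs in 4 cells against 848 (log2 -2.42, -3.43 to -1.57). Of the joint lining genes, lubricin Prg4 stood at -1.45, while Cd55 and Crabp2 were within 2-fold.

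Mural genes were higher, and rested on few cells. Rgs5, Notch3 and Acta2 stood at log2 2.92, 2.70 and 1.22. Rgs5 was found in 17 of the 95 cells, and 1 cell held 20.6% of its 931 UMIs. With the marked cells left out 2 of 3 were still 2-fold higher, with a median of 1.17, and with the same clusters none was (median -0.27).

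To ask which kinds of cell were in cycle, the compared cells were clustered alone and the other eligible cells were placed in the 15 clusters by their nearest neighbours. This was done after it was seen that clustering all eligible cells, even without cell cycle genes, gathered 43 cycling cells with 2 compared cells into 1 cluster of 45. Of the compared cells, 93.7% were placed back in their own cluster. Their neighbours had also made the clusters, so this share is partly built in and cannot check the placing of cycling cells. Names ending in -like rest on marker lists and not on an annotation by the authors. The mural-like class had the highest share in cycle, 10 of 36 cells or 27.8% (14.2 to 45.2). It was followed by connective-tissue fibroblast-like cells with 39 of 757 (5.15%, 3.69 to 6.98), unnamed cells with 24 of 495 (4.85%, 3.13 to 7.13), mineralising-like cells with 3 of 107 (2.80%, 0.582 to 7.98), tendon-like cells with 16 of 682 (2.35%, 1.35 to 3.78) and cartilage-like cells with 3 of 152 (1.97%, 0.409 to 5.66).

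Among eligible cells the interval of the mural-like class lay above all the others. Those of connective and tendon-like cells overlapped slightly, and the remaining classes could not be ordered beyond their counting error. After thinning to 5000 UMIs the shares were 25.7% in mural-like, 4.48% in connective, 2.73% in unnamed, 2.97% in mineralising-like, 1.85% in tendon-like and 0.680% in cartilage-like cells. Median depths were 11884 UMIs in mural-like, 13225 in connective and 14932 in tendon-like cells. Without the marked cells the shares were 4.91% in connective (37 of 753 cells), 4.20% in unnamed (20 of 476) and 2.06% in tendon-like cells (14 of 680). All 10 mural-like cycling cells were among the marked, so that class has no value without them. The cell lowest in Rgs5 among them, at 51.0 CPM, was under the limit of 10 Rgs5 UMIs and bore a myogenic or B-lineage mark. Among unnamed cells, 18 of the 24 cycling cells lay in 1 cluster of 202 (8.91%, 5.37 to 13.7), or 10 of 198 after thinning (5.05%, 2.45 to 9.09), in which the leading genes were the chemokine Ccl11 and the muscle actin Acta1 and muscle and connective-tissue markers were both raised. Single markers in place of clusters kept connective tissue above tendon, but not the whole order. Of 882 cells having at least 20 Tnmd UMIs, 20 were in cycle (2.27%, 1.39 to 3.48). Of 835 cells having at least 3 UMIs of Cd34, a surface protein of fibroblast progenitors, 55 were in cycle (6.59%, 5.00 to 8.49). Of 48 cells having at least 10 Rgs5 UMIs, 10 were (20.8%). Of 291 cells having at least 100 UMIs of the cartilage gene Col2a1, 7 were (2.41%, 0.972 to 4.89). This put cartilage slightly above tendon, the reverse of the placed classes, and the intervals overlapped.

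**Figure D3:**
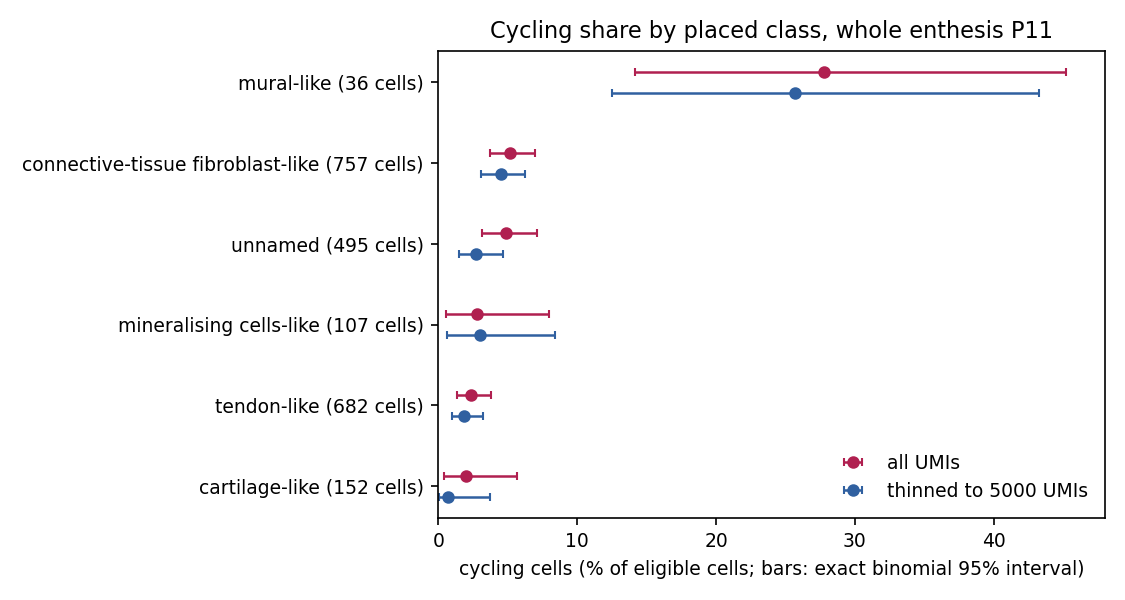
The percentage of eligible P11 cells that met the cycling rule (x) is shown for each placed class (y, with the number of cells), over all UMIs (red) and after thinning to 5000 UMIs (blue), with exact 95% binomial intervals. Mural-like cells stand at 27.8%, and the other classes between 1.97% and 5.15%.

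The stages were not spread alike over the classes. Of 39 connective fibroblast-like cycling cells, 33 lay above both limits, 4 above the mitotic limit only and 2 above neither. Of 16 tendon-like cells, 6 lay above both, 6 above the mitotic limit only and 4 above neither. The mural-like cells had 6 above both and 3 mitotic only, with 1 above the replication limit only. Without the marked cells 32 of 37 connective and 4 of 14 tendon-like cells lay above both. These are counts within 1 library, and the difference was not tested.

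The placement used the whole profile of a cell, tendon genes included, so the levels of these genes in the 16 tendon-like cycling cells are partly set by it and are given as a description. Tnmd ran from 1412 through 4023 to 7475 CPM in the 16 cycling cells, none of which was at 0, against 0, 5060 and 17103 CPM in 620 compared cells of the class (log2 of the summed levels -0.34). Thbs4 ran from 1006 through 2721 to 6611 CPM against a median of 2684 CPM (log2 -0.03). Fmod, with a median of 5938 against 7307 CPM, stood at -0.60, and Scx at -0.47. Col1a1 ran from 13063 through 68443 to 234951 CPM against 5805, 98898 and 301195 CPM (log2 -0.52), and Sparc stood at -0.50. Markers of other cells differed in the same cells, with muscle markers at 86.6 against 3.25 CPM and immune markers at 170 against 45.0 CPM. Without the 2 marked cells these stood at 18.2 and 43.7 CPM, Tnmd at log2 -0.31, Thbs4 at 0.05, Fmod at -0.64, Scx at -0.36, Col1a1 at -0.40 and Sparc at -0.39.

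Other genes differed more within the class. H2afz ran from 166 through 1373 to 3721 CPM against a median of 205 and a maximum of 1214 CPM (log2 3.05), and Stmn1 stood at log2 7.36 with 5 of the 16 cells at 0. Angptl7, a secreted factor that leads 1 of the tendon-like clusters, had 2 UMIs in the 16 cells, or 6.18 CPM (0.749 to 22.3), against 2292 UMIs or 248.5 CPM in compared cells. It was at 0 in 14 of 16 cycling cells, but also in 446 of 620 compared cells. Only 1 of the 132 cells of the cluster it leads was in cycle (0.758%, 0.0192 to 4.15). Ctgf stood at -1.93 and the transcription factor Klf2 at -1.29 in these cells. Stmn1 and Klf2 were named after their values were seen.

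**Figure D4:**
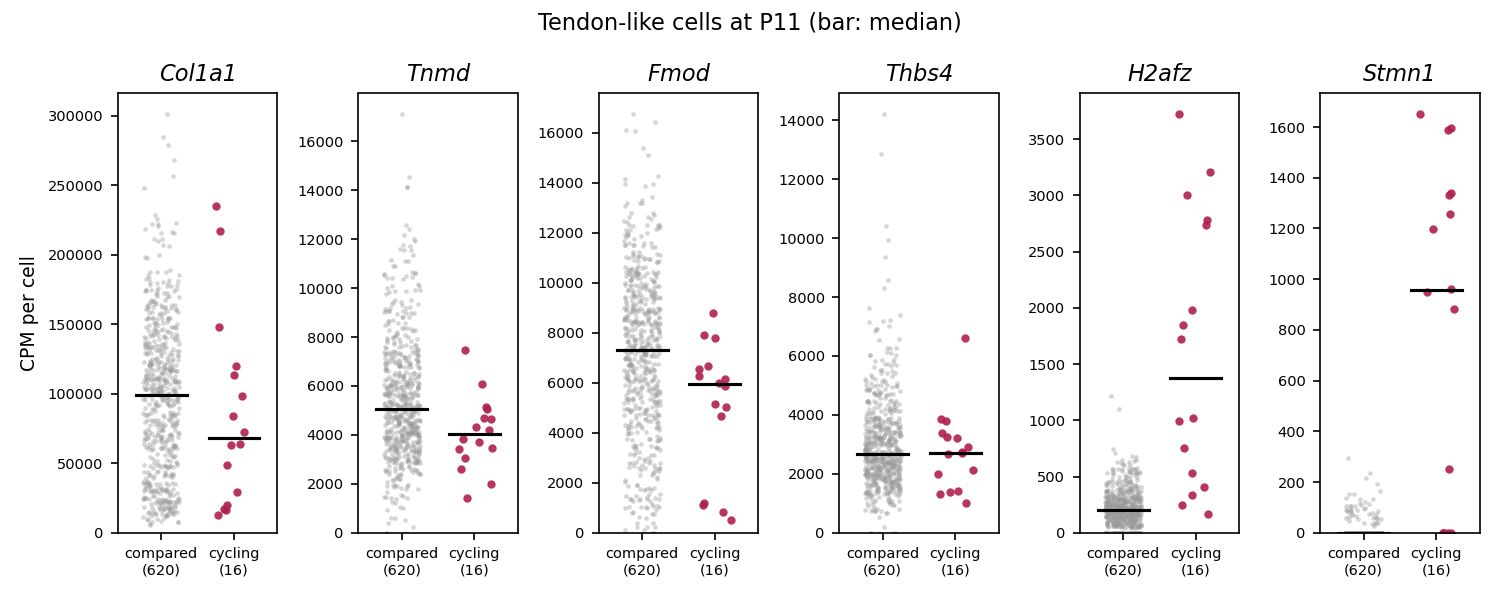
Each point is 1 tendon-like cell of the P11 library, grey for the 620 compared and red for the 16 cycling cells, placed by its CPM (linear axes, 1 per gene) with a bar at the median. Tnmd, Fmod, Thbs4 and Col1a1 of cycling cells lie within the range of compared cells, the first 3 being markers that named the class, whereas most cycling cells exceed the compared cells in H2afz and Stmn1.

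The connective fibroblast-like cells in cycle had summed collagen levels that differed little from the compared cells, but a lower median of Col1a1 per cell. Col1a1 ran from 957 through 6550 to 33572 CPM in the 39 cycling cells and had a median of 9135 CPM in 649 compared cells, with summed levels within log2 -0.01. Col3a1 stood at -0.24 and Dcn, a small proteoglycan, at -0.10. The progenitor-associated genes Cd34, Ly6a and Pdgfra stood at -0.51, -0.56 and -0.35. Pi16 had 2 UMIs, or 2.37 CPM (0.288 to 8.58), against 624 UMIs or 71.6 CPM. The genes Gas6, Btg2, Egr1 and Cdkn1c were lower in this class, at -1.21, -1.05, -0.98 and -0.91, and Cdkn2c was higher at 5.02, with 257 and 82 UMIs. Tendon genes in these cells are hard to read, since 1 of the 39 cells held 61.5% of their Tnmd UMIs. Without the 2 marked cells of this class, Col1a1 stood at -0.14, Pi16 at 2.58 against 71.8 CPM, Gas6 at -1.25, Cdkn1c at -1.29 and Cdkn2c at 5.15.

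The 10 mural-like cells in cycle were placed by profiles that include the mural markers, whose levels are therefore a description. Rgs5 ran from 51.0 through 4899 to 9812 CPM against 381, 3706 and 18066 CPM in the 19 compared cells of the class (log2 -0.01), Notch3 had medians of 544 and 729 CPM, and Acta2 stood at -0.49. H2afz stood at 2.58 and Stmn1 at 4.75. One of the 10 cells held 99.9% of the Col2a1 UMIs of the group, and its cartilage genes make other ratios of this class unreliable.

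The cycle genes themselves were higher in all 3 classes. Summed over the DNA replication list, the log2 ratio was 2.92 in connective, 2.14 in mural-like and 2.46 in tendon-like cells. It was 6.37, 5.55 and 6.62 for the passenger and cytokinesis list and 2.35, 2.35 and 2.56 for the chromatin list. The summed matrix list stood at -0.11, -0.56 and -0.45. The differences between classes were not tested.

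Outside the lists, the genes with the highest ratios were again known from the cycle. Cdca3, which triggers mitotic entry, had 411 UMIs in 63 cycling cells against 10 in compared cells (log2 9.21, 8.31 to 10.28), and Pclaf, a partner of Pcna, 627 against 20 (log2 8.82). They were followed by Lockd (6.20), a long noncoding RNA gene near an inhibitor of cyclin-dependent kinases, then Cenpq (4.94), the formin gene Diaph3 (4.70), Trim59 (4.44), Tcf19 (4.30), the checkpoint mediator Clspn (4.27), the nuclear envelope gene Tmpo (4.08) and Haus4 (3.84), a spindle gene. The 10 lowest had few UMIs in cycling cells. Msmp had 3 UMIs in 2 cycling cells against 5094 in 68 compared cells (log2 -6.88, -9.16 to -5.33), and Angptl7 4 against 2461 (log2 -5.42, -7.29 to -4.06). Of the 73 cells placed in the cluster that Msmp led, 1 was in cycle (1.37%, 0.0347 to 7.40). Fcgr3, Galr2, Ackr2, Cytl1, Oxt, Tnn, C3 and Tmem52 followed, each with 7 or fewer UMIs in cycling cells.

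The P11 library held cells with Xist, the transcript of the inactive X chromosome, and cells with Y-linked transcripts. Of 1688 cells with Xist and no Y-linked transcript, 69 were in cycle (4.09%, 3.19 to 5.14), and of 322 cells with Y-linked transcripts and no Xist, 16 were (4.97%, 2.87 to 7.94). The intervals overlap, and the number of animals in each subset is not stated.

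At later ages the same rule found fewer cells. The share was 4.26% at P11, as above. It was 1.15% at P18 (14 of 1219 cells, interval 0.629 to 1.92) and 0.261% at P56 (9 of 3451 cells, interval 0.119 to 0.494), and the 3 intervals do not overlap. After thinning to 2000 UMIs per cell the P11 share was 2.55% (interval 1.93 to 3.29). For P18 it was 0.501% (interval 0.184 to 1.09), and for P56 0.117% (interval 0.0319 to 0.300), which overlap each other. Shallower cells left out numbered 30, 21 and 36. The intervals of P18 and P56 also overlap after thinning to 5000 UMIs. The 6 rule genes summed over all eligible cells stood at 109 CPM (105 to 112), 35.3 CPM (32.2 to 38.6) and 17.2 CPM (15.8 to 18.8). Ages cannot be told apart from libraries here.

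The P18 members included cells of other kinds. Their immune markers summed to 14894 CPM, with 93.0% of these UMIs in 1 cell, though the sort was for cells without Cd45, and 10 of the 14 were among the cells with the highest doublet scores. Without those scores the share at P18 was 0.337% (0.0918 to 0.860), and without cells carrying myogenic, mural or B-lineage marks 0.334%, close to the 0.261% of P56. With a threshold of 1 Col1a2 UMI it was 5.47%. That last threshold gave 4.76% at P11, so the order of P11 and P18 turned with it, whereas the other choices kept P18 below P11. At P11, 5 of 95 cycling cells had such scores, and the share without them was 4.12%.

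**Figure D5:**
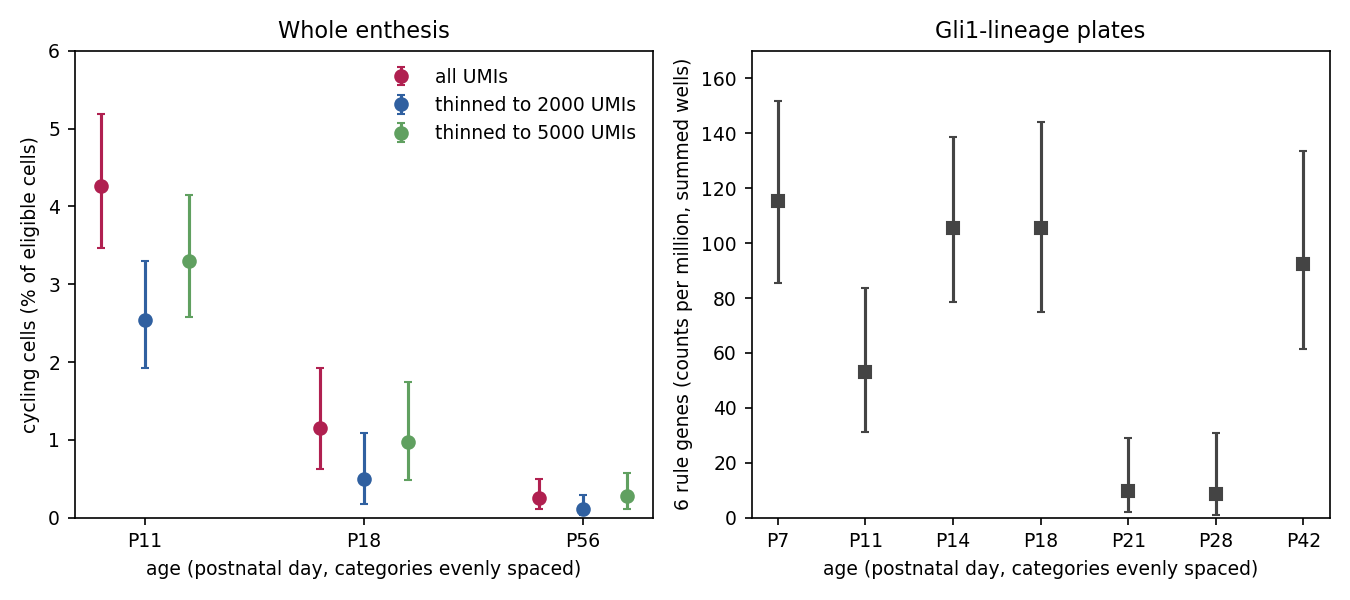
Left, the percentage of eligible whole-enthesis cells that met the cycling rule (y) at 3 ages (x), over all UMIs and after thinning to 2000 or 5000 UMIs, with exact 95% binomial intervals. Right, the CPM of the 6 rule genes in the eligible wells of each Gli1-lineage plate, with exact 95% Poisson intervals. These intervals treat counts as molecules, which is not known for the plates, and do not cover the spread between wells. The plates fall to 8.57 at P28 and stand at 92.5 at P42.

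The Gli1-lineage plates had too few wells to follow such cells with age. Wells with counts of at least 2 of the 6 genes numbered 5 of 92 eligible wells at P7 and 1 of 92 at P11. They numbered 4 of 89 at P14, 1 of 89 at P18, none of 91 at P21 and of 87 at P28, and 2 of 83 at P42. The 6 genes summed to 115 CPM at P7, 52.9 at P11, 106 at P14, 105 at P18, 9.90 at P21, 8.57 at P28 and 92.5 at P42. The lowest plates were P21 and P28, with 3 and 2 counts in all, and the plates did not follow the order of age. At P11 the droplet library stood at 109 CPM, but the 2 assays differ in mouse genotype, tamoxifen treatment, sort and counting, and no test was made between them.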

How the data were processed

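The deposited droplet files hold raw counts per gene and cell barcode, written by software version 3.1.0 (P11 and P18) or 3.0.2 (P56), per the file headers, and the deposited plate files hold counts per gene and well. Reads were set against mm10, per the submitters' processing notes; the aligner and annotation are not given in the sources used here, nor whether plate counts are molecules. Cells of 1 pooled library are not replicates, so no test was run and no p-value is given.

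The cells, the marker genes and all gene lists were chosen with earlier results of these data known. Counts were summed per cell group and given as CPM, with ratios for genes with at least 200 UMIs, without a pseudocount, and with a floor of 3 counts where a group had none. The rule genes, Col1a2, Ptprc, Cdh5 and mt- genes were left out of the counts of genes. Snorc and Ccn2 are not symbols of the gene list, where Ccn2 stands as Ctgf. The text names the 6 rule genes, up to 4 members per list and direction furthest from a ratio of 1, and the 10 highest and lowest genes outside the lists other than predicted ones. Genes named beyond this, such as Pcna, Mcm6, Stmn1, Ccne2, Cenpa and Foxm1, were chosen after their values were seen. P11 cells were clustered with scanpy 1.11.5 and leidenalg 0.10.2 on 2000 variable genes, 30 components and 15 neighbours at resolution 1, without cell cycle lists. The clustering of all eligible cells described above also left out the genes at least 2-fold higher in cycling cells. The placed classes came from clustering the compared cells alone. Doublets were scored with scrublet in scanpy, which called 1, 1 and 3 cells by its own threshold, too few to have worked, so the highest 70, 233 and 211 scores were removed as an alternative. The ratios and weights were tested on simulated data.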

Additional observations from a re-analysis of the deposited data

How the results depend on the processing

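At P11 the share of cycling cells, 4.26%, was 13.2% with at least 1 of the 6 rule genes and 3.05% with at least 3, and 2.55% or 3.30% after thinning to 2000 or 5000 UMIs. The 6 other settings stayed within its interval. At P18 the share, 1.15%, was 6.97% with at least 1 rule gene, 5.47% with at least 1 Col1a2 UMI, 0.501% after thinning to 2000 UMIs, 0.337% without the highest doublet scores and 0.334% without marked cells. At P56 the share, 0.261%, was 2.90% with at least 1 rule gene and 0.117% after thinning to 2000 UMIs. The 688 higher genes at P11 became 329 with at least 1000 genes and at most 5% mt- counts, which kept 35 cycling cells and 6133 genes. They became 394 with TMM, 323 with at least 500 UMIs per gene, 446 with compared cells of the same placed clusters, 155 in the 16 cycling cells with Y-linked transcripts, and 2515 when weighted to clusters of all eligible cells, where the main cycling cluster had 2 compared cells. The 269 lower genes became 497 in the 27 cells with exactly 2 rule genes, 544 with TMM, 424 and 145 with at least 100 and 500 UMIs per gene, 984 with clusters of all eligible cells and 174 in the cells with Y-linked transcripts. The other 10 settings for each count stayed within 1.5 times. With the same placed clusters 424 of the 446 higher and 135 of the 254 lower genes were among those of the unweighted comparison. The cause of these differences was not tested. The weighting to placed clusters and the removal of marked cells were added after seeing the data. No paired analysis was possible because no age has a second library of the same assay. No setting leaves out a replicate for the same reason. Depth limits the calls to cells with enough UMIs, and intervals cover counting error only.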
